A study of Mus musculus with 3 samples.

Results

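The genes described here encode tubulins, microtubule-associated proteins and the motors that walk on microtubules. They were chosen by symbol alone: probe sets with 1 gene symbol in the platform annotation beginning with the tubulin, microtubule-associated protein, stathmin, kinesin, dynein, dynactin, doublecortin or Pafah1b stems, without Stmn2. The rule gave 102 of 12422 gene probe sets, which stand for 71 of 8251 named genes. The prefix rule also took in Tubgcp3 and Tubgcp4, subunits of the complex that nucleates microtubules, and the pseudogene Tubb2a-ps2.

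The 3 Affymetrix U74Av2 arrays, 1-colour arrays of short oligonucleotide probes, all carried neural retina RNA of Rp1 knockout mice (Rp1-/-) at postnatal day 10 (P10), on a mixed 129/SvEv and C57BL/6 background. Each array was hybridised with RNA pooled from 3 to 4 mice, collected between 1 and 2 pm, and the labels do not say whether pools shared animals. Arrays are called pools 1 to 3 in accession order, a name only, and although all descriptions give this genotype, the tag rp1 stands in the array titles of pools 2 and 3 but not in that of pool 1. No control genotype was analysed here, so every comparison is between pools of 1 genotype, and no probe set (0) was named Rp1, so the loss of Rp1 could not be checked on these arrays.

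Microtubules are hollow polymers of alpha and beta tubulin that grow from sites nucleated by gamma tubulin. Structural proteins such as tau and MAP2 bind along them, kinesins mostly carry cargo towards the plus end, and cytoplasmic dynein with its activator dynactin carries cargo towards the minus end. In photoreceptors microtubules form the axoneme of the connecting cilium that leads to the outer segment, and RP1 itself is a microtubule-associated protein of that axoneme with doublecortin domains.

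The signals are intensities that had already been scaled, with trimmed means of 500.25 to 500.26 on the arrays. Control probe sets for bacterial and yeast genes gave each array its background floor, their 90th percentile: 100.5 signal units in pool 1, 124.8 in pool 2 and 120.4 in pool 3. Between 65.5% and 69.7% of gene probe sets lay above it. The 3' to 5' signal ratio, a measure of RNA integrity, lay between 0.75 and 0.90 for Gapdh, and for Actb it was 1.10 in pool 1, 1.40 in pool 2 and 1.63 in pool 3. All 9 rod markers with a probe set were above the floor in every pool, with summed signals of 72446, 95099 and 84044. The 11 lens markers with a probe set, all above the floor in every pool, summed to 94914, 25460 and 203614, and the 3 blood markers to 20541, 12672 and 10546. The part of these differences in the results below was not tested. These were bulk samples, in which fewer cells of a type and less RNA per cell cannot be told apart.

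Most genes of the microtubule system were detected in these retinas. A gene was represented by its probe set with the highest mean signal, and 60 of the 71 genes (84.5%) were above the floor in every pool, beside 66.4% of all named genes. Another 6 genes were above it in some pools and 5 in none, beside 1427 and 1349 of all 8251 named genes. At the level of probe sets, 79 of 102 (77.5%) were above the floor in every pool, 12 in some and 11 in none. The same shares over all gene probe sets were not computed. A mean signal above the mean floor, which the text calls measured, was reached by 62 genes and by 84 probe sets. Because that filter uses the mean over pools, a gene can pass it through 1 high pool, as Kif1c did. Signals of different probe sets are not compared as amounts, since probes differ in how strongly they bind.

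**Figure D1:**
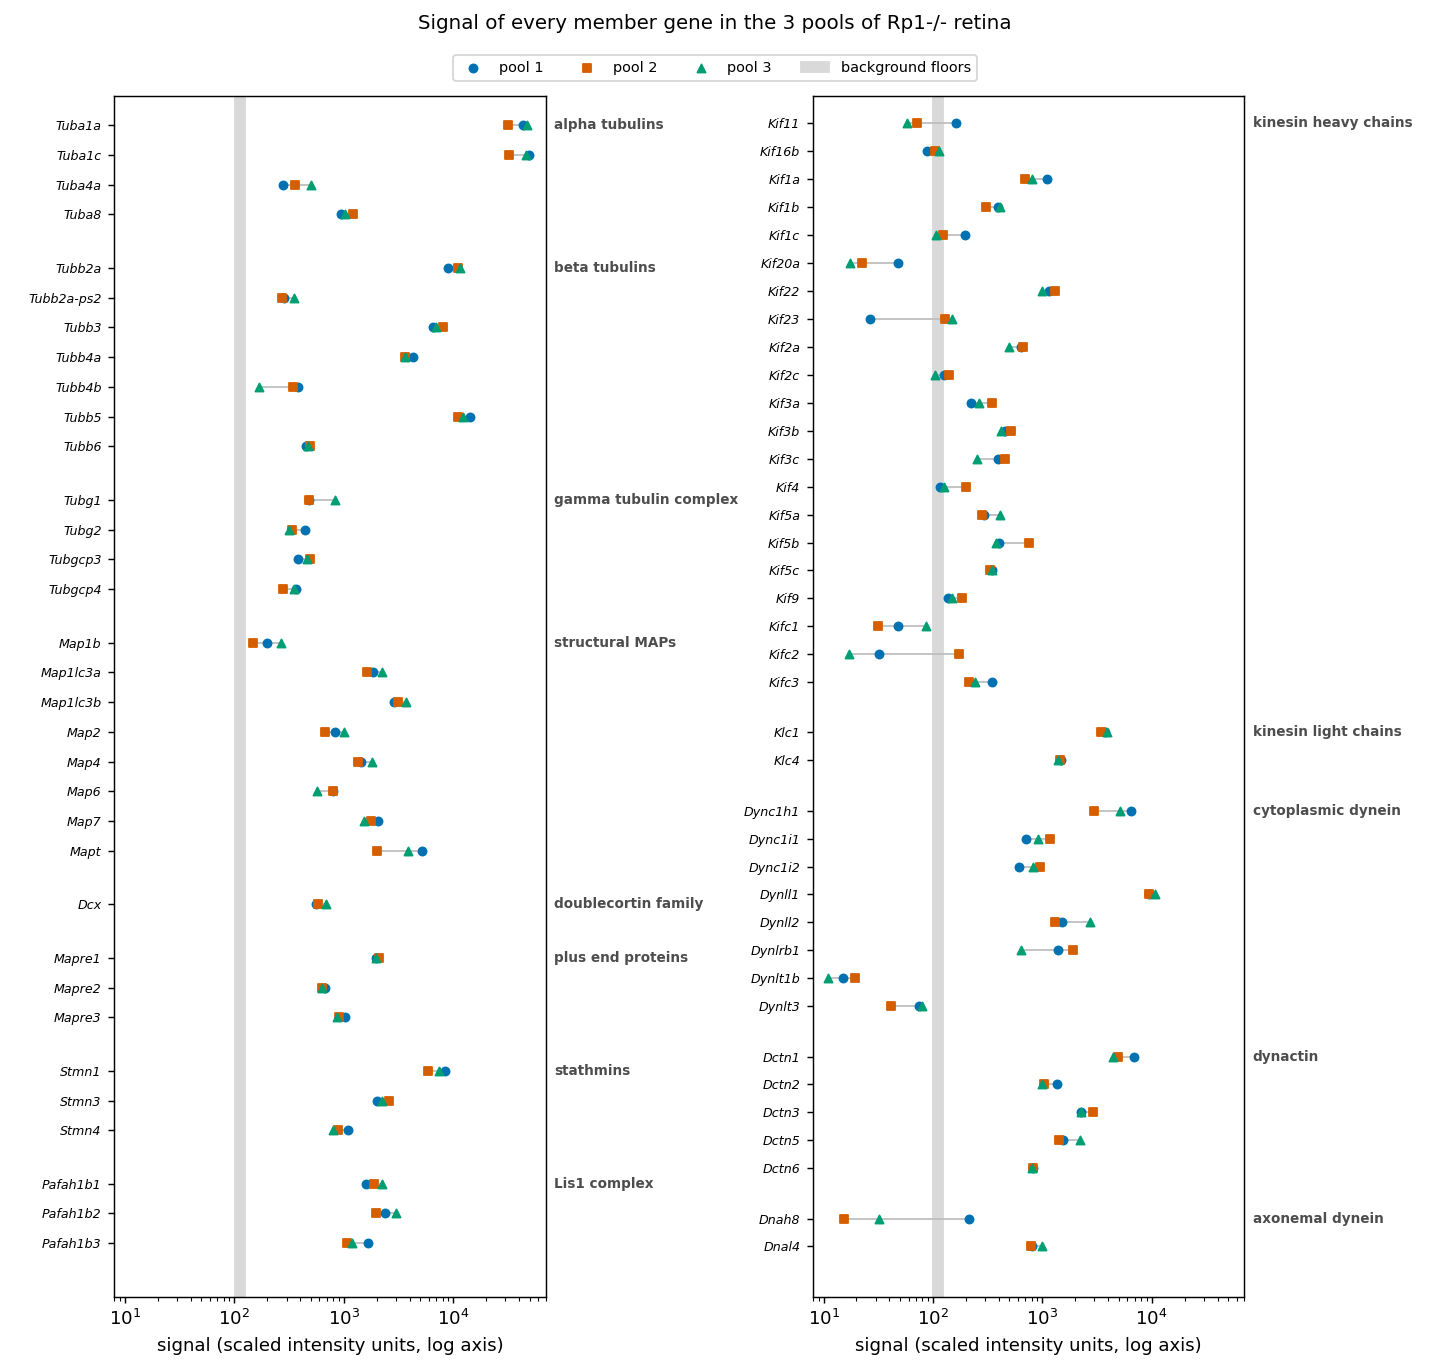
Signal of the 71 genes in pool 1 (circles), pool 2 (squares) and pool 3 (triangles) on a log axis in scaled intensity units, grouped by class, with grey lines joining the pools of a gene and a grey band over the 3 background floors (100.5 to 124.8). Most genes lie to the right of the band with their 3 points close together, and Dynlrb1, Mapt, Tubb4b, Dynll2 and Dync1h1 are the measured genes whose points lie furthest apart as a ratio.

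The spread of these genes between pools lay near that of all genes. With limma's fit of the variance of each probe set between pools against all others of like signal, 0 of the 84 measured probe sets passed an adjusted p of 0.05, where 18 of 8327 (0.216%) did over the array. At an unadjusted p under 0.05 there were 5 (5.95%), beside 5.34% of all probe sets. The count was also 0 with an ordinary instead of a robust fit and without the intensity trend, but 3 (a pair of Mapt sets and 1 of Dynlrb1) without the filter on low signal and 1 (Dynlrb1) without pool 1. Counts over the array under these alternatives are not given here. Without the filter limma's adjusted p fell for other sets too, as for Tubb4b from 0.99 to 0.82. Signals of the genes had a median standard deviation (SD) of 0.23 on the log2 scale over the 3 pools, beside 0.26 for all 6210 measured genes, and 23 of 62 (37.1%) exceeded the trend, beside 39.4%. Among the 1553 brightest genes of the array, which include 29 of these, the median SD was 0.22 for the 29 and 0.21 for all. Among the dimmer genes it was 0.25 for the other 33 and 0.28 for all 4657.

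Median differences between pools were close to 0. The 62 genes had a median log2 difference of 0.05 between pools 1 and 2 (pool 1 minus pool 2), -0.01 between pools 1 and 3 and -0.01 between pools 2 and 3, each taken as the lower-numbered pool minus the other. The medians of all measured genes were -0.00, -0.00 and 0.01. Between pools 1 and 2, 2 genes differed by more than 2-fold, Dync1h1 and Mapt (3.23%, beside 5.65% of all genes), both higher in pool 1 (2 genes, beside 2.48% of all genes, and 0 lower, beside 3.17%). Between pools 1 and 3 these were Dynlrb1 and Tubb4b (3.23%, beside 6.18%), both higher in pool 1 (2 genes, beside 2.98%, and 0 lower, beside 3.2%). Between pools 2 and 3 they were Dynll2, Dynlrb1 and Tubb4b (4.84%, beside 4.86%), the last 2 higher in pool 2 (2 genes, beside 2.54%) and Dynll2 lower (1 gene, beside 2.32%). In all, 5 of 62 genes (8.06%) were past 2-fold in at least 1 pair, beside 12.1% of all genes. With 1 array on each side of such a difference there is no replicate check of it. When all probe sets of each gene were averaged, only Dync1h1 and Tubb4b of these 5 genes stayed past 2-fold. Tubb4b was no longer past it with the floor at the highest control or with log2 of intensity plus 50. The setting without suffixed probe sets cannot check Dynlrb1, since both of its sets carry a suffix and the gene was left out.

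**Figure D2:**
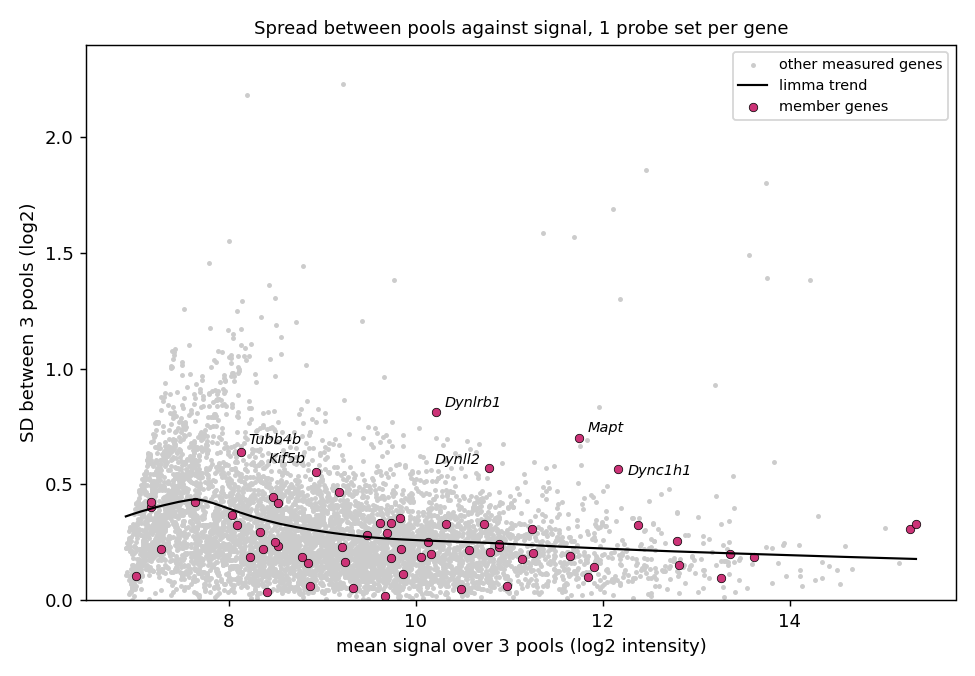
SD between the 3 pools (log2) against mean signal (log2 intensity) for 1 probe set per measured gene, with the 62 microtubule genes as large points, the other measured genes as small grey points and limma's trend as a line. The microtubule genes scatter on both sides of the trend, 23 of 62 above it, and Dynlrb1 and Mapt have the largest SDs among them (0.81 and 0.70).

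Alpha tubulins, the subunit at the minus end of each tubulin dimer, were all above the floor in every pool. For Tuba1a, the main alpha tubulin of developing neurons, pool 1 gave 43398, pool 2 gave 31402.1 and pool 3 gave 46863.8 signal units, and values below follow this order of pools. The range was 1.49-fold. Its other probe set, designed on the same transcript accession, gave 30571.2, 22340.8 and 29081.4. Pool 2 was lowest by both, and the highest pool differed. Tuba1c, a close relative of Tuba1a, gave 49110.7, 32225.9 and 46306.3, again with pool 2 lowest (range 1.52-fold). The log2 SDs of 0.31 for Tuba1a and 0.33 for Tuba1c exceeded the 0.18 typical of their signal, but limma's adjusted p was 0.99 and 0.98. These probe sets carry the suffix i or f, which marks probes of relaxed choice or probes that can bind related transcripts. Tuba4a signals were 278.2, 361.0 and 496.5, a range of 1.78-fold with pool 3 highest (adjusted p = 0.99), and a further Tuba4a probe set was under the floor in every pool. Tuba8, an alpha tubulin of divergent sequence, gave 951.8, 1224.2 and 1028.9, with pool 2 highest. Within the class 2 genes were thus lowest in pool 2 and 2 in pool 1.

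The promoters of Tuba1a, Tuba1c and Tubb5 are shown because, among the alpha and beta tubulins, these had every measured probe set lowest in pool 2, a choice made after the values were seen. Tubb2a-ps2 met this too and has no promoter shown. Each run is the 200 bases before the RefSeq transcription start, read 5′ to 3′ on the gene's strand, build GRCm38.p6. Capitals mark matches to CCAAT, the box bound by NF-Y, and to GGGCGG, the GC box bound by Sp1 family factors, on either strand. The windows are chr15:98953502-98953701 on the minus strand for Tuba1a, chr15:99029691-99029890 on the plus strand for Tuba1c and chr17:35838302-35838501 on the minus strand for Tubb5.
Tuba1a: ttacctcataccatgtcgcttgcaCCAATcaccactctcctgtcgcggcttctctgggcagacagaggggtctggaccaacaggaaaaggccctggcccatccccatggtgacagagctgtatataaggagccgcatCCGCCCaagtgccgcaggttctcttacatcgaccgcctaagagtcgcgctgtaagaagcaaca
Tuba1c: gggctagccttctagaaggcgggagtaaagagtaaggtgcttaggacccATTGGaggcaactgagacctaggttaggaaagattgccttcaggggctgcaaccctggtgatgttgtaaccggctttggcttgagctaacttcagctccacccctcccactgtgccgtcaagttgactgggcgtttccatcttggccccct
Tubb5: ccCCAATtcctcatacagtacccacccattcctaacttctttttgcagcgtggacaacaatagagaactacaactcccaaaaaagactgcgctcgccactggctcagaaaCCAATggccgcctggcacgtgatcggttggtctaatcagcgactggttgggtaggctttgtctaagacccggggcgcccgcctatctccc
The CCAAT match of Tuba1a began 176 bases before the start and its GC box, on the opposite strand, 63 bases before it. Tuba1c held 1 CCAAT match, on the opposite strand, at 151 bases, and Tubb5 held 2, at 198 and 90 bases.

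RefSeq promoter windows were found for 53 of the 71 genes, 66 windows in all. CCAAT on either strand was in 34.8% of them, beside 29.3% of all 32851 windows of the same length. The GC box GGGCGG was in 48.5%, beside 31%. For TATAAA, the TATA box core, the shares were 9.09% and 9.96%, for the E-box CAGCTG 10.6% and 10.9%, and for TAATCC, the core bound by the photoreceptor factor Crx, 4.55% and 4.91%. None of the 5 motifs contains another. Several windows can belong to 1 gene, so the windows are not independent, and a match is a description of letters and no evidence of binding.

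Beta tubulins were also above the floor in every pool, 7 of 7. Tubb5, a broadly expressed beta tubulin, gave 14404.6, 11165.5 and 12303.0 in pools 1, 2 and 3. The other Tubb5 probe set, from the same accession, gave 11242.9, 8988.6 and 12571.1. Pool 2 was lowest by both, while pool 1 was highest by the brighter set and pool 3 by the other. Tubb2a, a beta tubulin of neurons, gave 8996.4, 11116.5 and 11663.6, with pool 1 lowest. Its dimmer probe set, with the suffix r, gave 188.1, 128.7 and 372.9, a range of 2.90-fold (adjusted p = 0.99). The sets shared pool 3 as the highest but not the lowest pool.

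The neuronal isotype Tubb3 gave 6607.3, 8106.2 and 7031.8, and its other probe set 1359.3, 1804.4 and 1433.6. Both sets had the same order of pools, with pool 2 highest and pool 1 lowest. Both carry the suffix f, as do the brightest sets of Tubb5, Tubb2a and Tubb6. Such sets can bind related transcripts, so their signals may not be those of 1 isotype. Tubb4a, a beta tubulin of neurons and glia, gave 4304.9, 3644.7 and 3614.5. Tubb4b, a beta tubulin known from cilia, had signals of 382.1, 341.9 and 168.3, with pool 3 low and pools 1 and 2 close together. Its range of 2.27-fold was the largest of the tubulins represented by their brightest probe set, but the log2 SD of 0.64 against a typical 0.38 did not pass limma's test (adjusted p = 0.99, range 0.82 to 1.0 over 13 alternatives). Tubb6 was among the 6 steadiest genes, at 449.0, 489.7 and 470.5 (range 1.09-fold). The pseudogene probe set Tubb2a-ps2 had a mean signal of 303 ± 40 (SD, n = 3 pools) and may bind transcripts of its parent family.

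Gamma tubulin and its partners, which nucleate microtubules at centrosomes and basal bodies, were near each other in their spread except for Tubg1. Tubg1, the main gamma tubulin, gave 476.1, 484.8 and 839.8. Pool 3 was the high pool, and the range was 1.76-fold (log2 SD 0.47 against a typical 0.29, adjusted p = 0.99). Tubg2 gave 438.1, 338.5 and 314.4, with pool 3 lowest, the reverse of Tubg1. Tubgcp3 gave 381.2, 491.1 and 456.5. Tubgcp4 gave 368.6, 276.7 and 352.1, and a further Tubgcp4 probe set was under the floor in every pool. The 4 genes had 3 different highest pools between them.

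Of the structural microtubule-associated proteins all 8 genes were above the floor in every pool, and the widest difference among them was that of Mapt. Mapt encodes tau, which binds along axonal microtubules. Pool 1 had a signal of 5236.9, pool 2 of 2016.5 and pool 3 of 3830.3. A probe set from the same accession gave 4850.6, 1702.4 and 3101.4. In both, pool 1 was highest and pool 2 lowest, with ranges of 2.60-fold and 2.85-fold. The log2 SDs of 0.70 and 0.76 stood against 0.23 typical of that signal, and limma's adjusted p was 0.47 (0.044 to 0.98 over 13 alternatives) and 0.36 (0.019 to 0.98 over 12). The lowest p of each came without the filter on low signal, where both passed 0.05 but the adjusted p of other sets fell too. The other Mapt probe set gave 1320.4, 1269.3 and 1847.2, with pool 3 highest, pool 2 still lowest and a narrower range (adjusted p = 0.99).

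The light chains of MAP1 that are known as autophagosome proteins were steadier. Map1lc3b gave 2880.9, 3106.5 and 3731.8, with pool 3 highest. Its other set gave 1979.7, 1549.4 and 1753.8, with pool 1 highest, so the sets did not rank the pools alike. Map1lc3a gave 1840.6, 1647.1 and 2249.6. Map1b, a protein of growing axons, had low signals of 200.1, 148.8 and 267.5, near the floor in pool 2 (log2 SD 0.42 against a typical 0.44).

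Map7, which recruits kinesin-1 to microtubules, gave 2052.2, 1781.0 and 1536.0. Map4, a widely expressed structural protein, gave 1438.7, 1362.4 and 1811.1, while its other set gave 175.0, 217.1 and 196.2. Pool 2 was lowest by the brighter Map4 set and highest by the dimmer. Map2, of dendrites, had a mean signal of 840 ± 169, and Map6, a protein of cold-stable microtubules, one of 722 ± 133 (SD, n = 3 pools). Across the class, 7 of 8 genes were higher in pool 1 than in pool 2 (median log2 difference 0.18), beside 3093 of all 6210 measured genes. Compared with pool 3, 5 of 8 were lower in pool 1 (median -0.28, beside 3114 of 6210) and 6 of 8 lower in pool 2 (median -0.43, beside 3054 of 6210).

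Dcx, the doublecortin of migrating and immature neurons and the sole gene of its family here, gave 556.7, 577.1 and 689.2. Its range of 1.24-fold, with pool 3 highest, was under that typical of its signal (log2 SD 0.16 against 0.28).

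Plus end binding proteins track growing microtubule tips and, with the kinesin light chains, had the narrowest spread of the classes. Mapre1 (EB1) gave 1962.9, 2110.9 and 1967.9. Its 2 dimmer sets also had pool 2 highest, at 776.1, 846.7 and 722.3 and at 122.4, 140.4 and 102.5. Thus all 3 probe sets shared the highest pool. Mapre2 gave 673.3, 627.8 and 638.3. Mapre3 gave 1016.3, 912.7 and 874.1, and its other set 711.4, 596.7 and 662.2, both with pool 1 highest. The class median of the log2 SD was 0.06, and Mapre1 and Mapre2 were among the 6 steadiest genes.

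Stathmins bind free tubulin and promote disassembly. Stmn1, abundant in immature neurons, gave 8375.5, 5899.1 and 7355.4, with pool 2 lowest (range 1.42-fold). A further Stmn1 probe set was under the floor in every pool. Stmn3 gave 2020.9, 2581.4 and 2219.0, and its other set 350.6, 424.8 and 490.3. Pool 1 was lowest in both and the highest pool differed. Stmn4 gave 1085.6, 883.6 and 804.8.

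**Figure D3:**
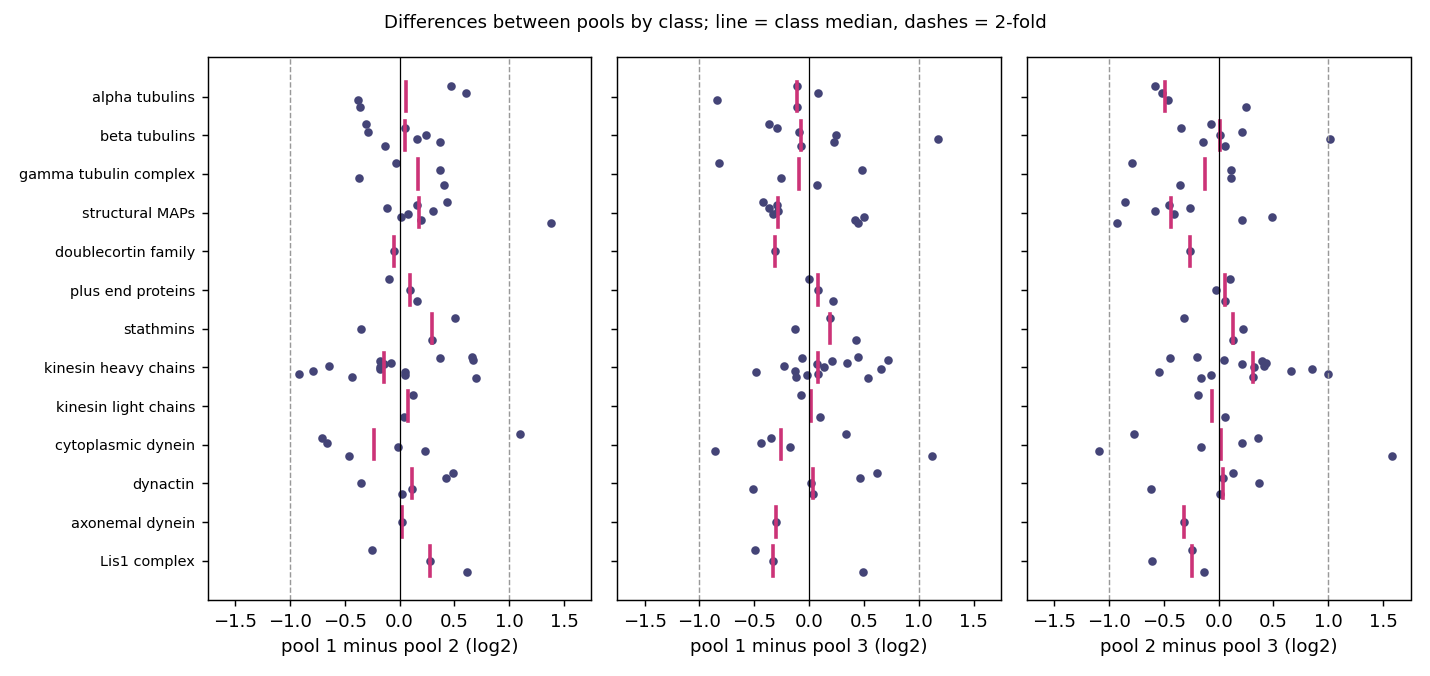
Log2 difference between each pair of pools (3 panels) for the 62 measured genes, by class, with 1 point per gene, a vertical line at the class median and dashes at 2-fold. The points past the dashes are Dync1h1 and Mapt for pool 1 minus pool 2, Dynlrb1 and Tubb4b for pool 1 minus pool 3, and Dynll2, Dynlrb1 and Tubb4b for pool 2 minus pool 3.

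Kinesin heavy chains, the motor subunits of the family, were above the floor in every pool for 13 of 21 genes (61.9%, beside 66.4% of all named genes), in some pools for 5 and in none for 3. Among the conventional kinesins (kinesin-1), Kif5b gave 402.7, 761.4 and 380.7. Pool 2 was the high pool, with a range of 2.00-fold that did not exceed the 2-fold mark and an adjusted p of 0.98 (0.59 to 1.0 over 13 alternatives). Kif5c, the neuronal form, was the second steadiest gene, at 343.8, 331.6 and 348.7. Kif5a, another neuronal form, had a mean signal of 327 ± 70.3 (SD, n = 3 pools), with pool 3 highest in both of its probe sets. The dimmer Kif5a set gave 112.9, 43.9 and 240.3, the value of pool 2 being under its floor (adjusted p = 0.99). By their brightest sets Kif5a and Kif5c had pool 3 highest and pool 2 lowest, and Kif5b had pool 2 highest and pool 3 lowest.

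Kinesin-2 motors carry the particles of intraflagellar transport into cilia. Kif3a had a mean signal of 278 ± 63.8 and Kif3b of 464 ± 51.3 (SD, n = 3 pools), both with pool 2 highest. Kif3c, an alternative partner of Kif3a, gave 397.8, 451.6 and 250.9, again with pool 2 highest and pool 3 low (range 1.80-fold, adjusted p = 0.99). A further Kif3a set was above the floor in pool 2 only.

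Of the kinesin-3 motors, which carry synaptic vesicle precursors and other organelles, Kif1a gave 1102.1, 699.6 and 805.2. Kif1b had a mean signal of 373 ± 58.2 (SD, n = 3 pools), with pool 3 highest. Kif1c gave 198.5, 122.5 and 105.8 and was above the floor in pool 1 only. Kif16b, which moves endosomes, was under the floor in every pool.

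The depolymerising kinesin Kif2a gave 632.9, 668.9 and 494.9. Kif2c, its mitotic relative, was above the floor in pools 1 and 2 only. Kif22, which binds chromosomes, gave 1154.9, 1312.6 and 997.9. Kif4, another chromosome-binding kinesin, lay just above the floor at 115.9, 201.0 and 127.1. The spindle motors Kif11, Kif20a, Kif23 and Kifc1 did not reach the mean floor: Kif11 was above it in pool 1 only, Kif23 in pools 2 and 3, and Kif20a and Kifc1 in no pool. The 12 markers of dividing cells with a probe set, of which 6 were above the floor in every pool and Bub1 and Top2a in none, summed to 3234, 3795 and 3404 in pools 1, 2 and 3.

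Kif9, a kinesin of motile cilia, had a mean signal of 156 ± 24.4 (SD, n = 3 pools), with pool 2 highest in both of its probe sets. Among the C-terminal motor kinesins, Kifc3 had a mean signal of 269 ± 71.9, with pool 1 highest. Kifc2 was above the floor in pool 2 only and was not measured.

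Kinesin light chains link kinesin-1 to its cargo. Klc1 gave 3729.5, 3428.2 and 3923.4, a range of 1.14-fold. Its dimmer sets, both from 1 accession, gave 605.2, 494.4 and 619.2, and 855.4, 952.9 and 688.3. Those dimmer sets ranked pool 2 lowest and highest respectively. Klc4 gave 1484.0, 1447.3 and 1386.4, and its other set 330.2, 341.4 and 278.8. Pool 3 was lowest in both Klc4 sets, and Klc4 was the third steadiest gene (range 1.07-fold).

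Cytoplasmic dynein chains showed the widest spread of any class, with a median log2 SD of 0.46 over 6 measured genes, and 3 of these were past 2-fold in at least 1 pair, beside 12.1% of all genes. For Dynlrb1 and Dynll2, which are among the 3, another probe set ranked the pools differently. Dync1h1, the heavy chain that holds the motor, gave 6420.2, 2985.6 and 5085.4. Pool 2 stood lowest, at 2.15-fold under pool 1 (log2 SD 0.57 against a typical 0.22, adjusted p = 0.65, 0.23 to 0.98 over 13 alternatives). The intermediate chains were ordered the other way, Dync1i1 by a probe set with the suffix r. Dync1i1 gave 716.2, 1171.6 and 913.3 and Dync1i2 gave 609.1, 959.7 and 827.5, both lowest in pool 1 and highest in pool 2, and they are shown by pool after their values were seen. Neither passed the test (adjusted p = 0.99 for both).

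Dynlrb1, a roadblock light chain, had the largest SD of the measured microtubule genes, with signals of 1387.0, 1907.3 and 639.0. Pool 3 was 2.98-fold under pool 2. Its log2 SD of 0.81 against a typical 0.26 gave an adjusted p of 0.41 with limma, and 0.0063 to 0.98 over 12 alternatives. It passed at 0.0063 without pool 1 and at 0.039 without the filter on low signal, where the adjusted p of other sets fell too. The other Dynlrb1 probe set, from the same accession, gave 522.8, 367.0 and 676.8 (adjusted p = 0.99). There pool 3 was highest and pool 2 lowest, so the pair of probe sets gave opposite orders. The brighter set carries the suffix i and the dimmer r.

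Dynll2, a light chain of the LC8 type, gave 1523.5, 1296.7 and 2756.9. Pool 3 was the high pool (range 2.13-fold, adjusted p = 0.78, 0.22 to 0.99 over 13 alternatives). Its other set, with the suffix f, gave 438.3, 620.9 and 492.6, with pool 2 highest. The paralogue Dynll1 gave 9424.5, 9513.9 and 10626.8, a range of 1.13-fold. Dynlt1b and Dynlt3, light chains of the Tctex type, were under the floor in every pool, each by a probe set with the suffix r. This does not hold for all Tctex probe sets. A set with the symbols Dynlt1a and Dynlt1c, outside the rule for that reason, gave 7190.4, 5004.5 and 6053.2. Another, shared by Dynlt1b and its relatives, gave 192.7, 94.4 and 96.0, above the floor in pool 1 only.

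Dynactin binds dynein and switches it on. All 5 dynactin genes were above the floor in every pool. Dctn1, the p150 subunit that touches both dynein and microtubules, gave 6869.6, 4905.1 and 4470.0 (range 1.54-fold, adjusted p = 0.99). Dctn2 gave 1374.6, 1027.5 and 1002.7, and its other set 661.2, 666.0 and 591.2. Pool 3 was lowest in each of these. Dctn3 gave 2267.8, 2884.3 and 2238.3, and Dctn5 gave 1543.5, 1433.7 and 2200.2. Dctn6 was the steadiest of the measured microtubule genes, at 828.9, 815.7 and 807.3 (range 1.03-fold). Pool 3 was the lowest pool for 4 of the 5 genes, beside 32.6% of all genes. Some of these places rest on near ties. Pool 3 lay 0.02 log2 units under pool 1 for Dctn3 and 0.04 under pool 2 for Dctn2, and the pools of Dctn6 were nearly equal.

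Axonemal dynein drives motile cilia. Of the 2 genes, Dnal4, a light chain, gave 800.0, 789.0 and 987.4. Dnah8, a heavy chain, gave 212.4, 15.5 and 31.9 and was above the floor in pool 1 only. The 3 motile cilia markers with a probe set summed to 1484, 1945 and 1140, and Tekt1 was under the floor in every pool. Dnah8 was under the floor in pools 2 and 3, so it has no order there to set beside these sums. The part of such cells in the signals of either gene was not tested.

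Lis1, encoded by Pafah1b1, regulates dynein, and Pafah1b2 and Pafah1b3 are catalytic partners of it in an acetylhydrolase. Pafah1b1 gave 1605.4, 1905.0 and 2252.9. Pafah1b2 gave 2396.4, 1969.3 and 3007.6 by its brightest set, 1554.2, 1672.5 and 1377.0 by another, and 705.6, 754.1 and 813.4 by a dimmer one. The 3 Pafah1b2 sets did not rank the pools alike. Pafah1b3 gave 1660.2, 1079.5 and 1181.9, with pool 1 highest, and its other set was under the floor in every pool.

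Probe sets of a gene did not always rank the pools alike. Of the 27 genes with several probe sets, 18 had several measured ones. The same pool was highest in all measured sets of 6 of these, Kif5a, Kif9, Mapre1, Mapre3, Tubb2a and Tubb3, and the lowest pool was shared in 8. For the other 12 the pool of the highest signal depended on the probe set. The same shares over all genes of the array were not computed, so these counts are a description only. Some measured sets were under the floor in a pool, such as the dimmest Mapre1 set (102.5) and the dimmer Kif9 set (81.9) in pool 3. Of the 102 probe sets, 31 carry a suffix, and 16 of the 71 genes were represented by one. Further probe sets (5 in all) carried several symbols, at least 1 of them of the chosen families, and were not counted among the 102. Apart from the Dynlt1 sets given above they were not named.

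**Figure D4:**
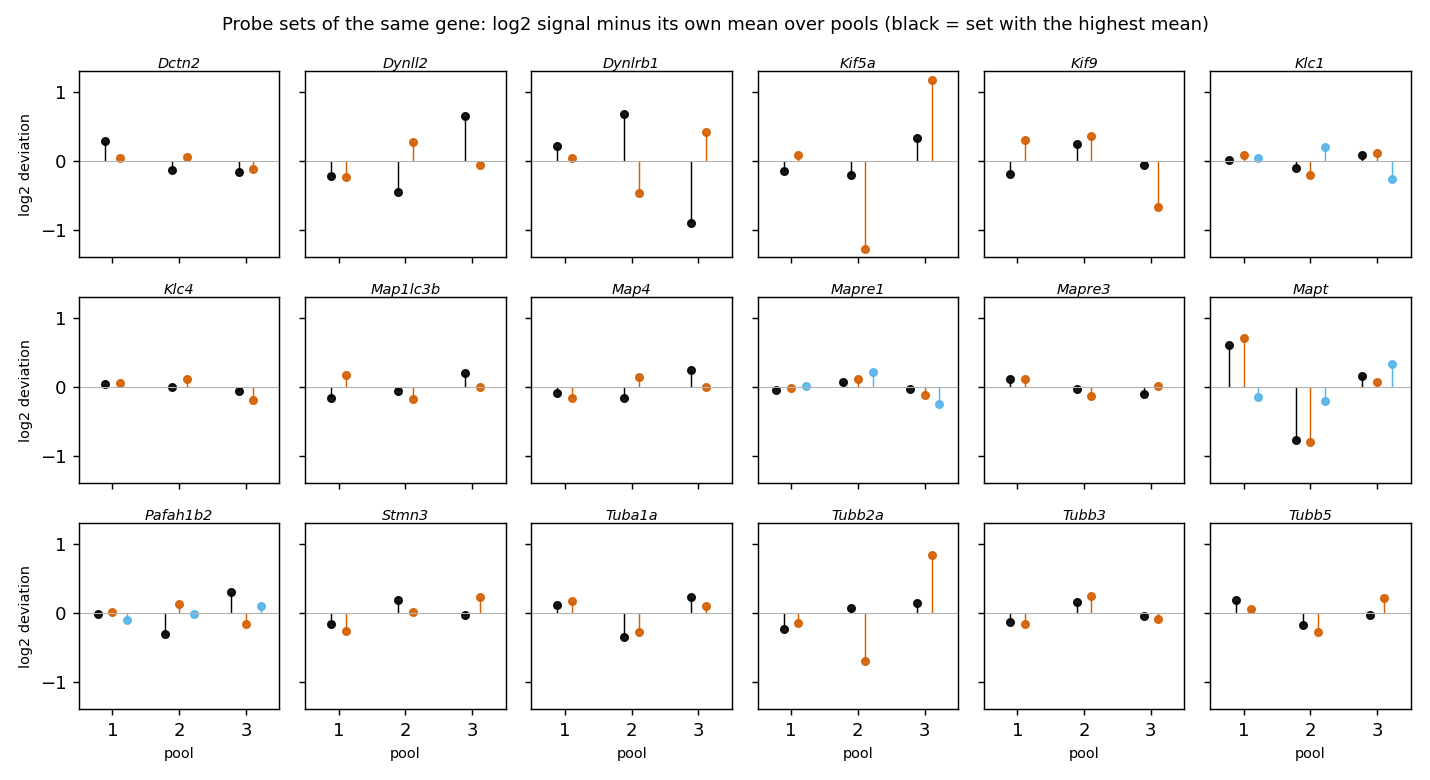
Log2 signal of each measured probe set minus its own mean over the 3 pools, for the 18 genes with several measured sets, on a common scale, without the floor. Black points are the set with the highest mean signal and coloured points the others. The sets of Dynlrb1 lie on opposite sides of 0 in pools 2 and 3, the sets of Tubb3 follow each other, and 2 of the 3 sets of Mapt share the low value of pool 2.

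The pools shared the lowest and highest places among the genes much as among all genes. Pool 2 was lowest for 24 of 62 genes (38.7%), beside 33.8% of all measured genes, pool 3 for 20 (32.3%, beside 32.6%) and pool 1 for 18 (29%, beside 33.7%). Pool 1 was highest for 22 genes (35.5%, beside 34.6%), pool 2 for 19 (30.6%, beside 33.6%) and pool 3 for 21 (33.9%, beside 31.8%). From highest to lowest, the order pool 3, 1, 2 was that of 14 genes (22.6%), beside 16% of all genes. It was also the order of the summed lens markers and of 2 lists of retinal neurons. In pools 1, 2 and 3 the cone markers summed to 9621, 8652 and 9942 and the bipolar cell markers to 2362, 1578 and 2767. The other summed marker lists, such as that of rods, had other orders. The part of any of these cells in the order was not tested. The order 1, 2, 3 was that of 12 genes (19.4%, beside 16.8%). Among them was Kif1c, whose signals in pools 2 and 3 were both under the floor and carry no order. Places, here and for all genes, were taken from the signals before they were raised to the floor. The order 2, 3, 1 was that of 11 genes (17.7%, beside 17.8%) and 1, 3, 2 of 10 (16.1%, beside 17.8%). The order 2, 1, 3 was that of 8 genes (12.9%, beside 15.7%) and 3, 2, 1 of 7 (11.3%, beside 15.8%).

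Other genes of the pathway were taken from lists of factors that fold, modify, cut, anchor or transport with microtubules. Of 80 listed, 53 had a probe set and were not among the genes described above, which set Tubgcp3 aside. Of the 53, 44 (83%, beside 66.4% of all named genes) were above the floor in every pool and 47 were measured. With limma 0 of these genes passed the test (beside 14 of all 6210 measured genes) and 0 had an unadjusted p under 0.05 (beside 317 of 6210). Past 2-fold in at least 1 pair was 1 gene of 47 (2.13%, beside 12.1%), Cep250, a centriole linker protein, at 244.7, 245.8 and 494.3 in pools 1, 2 and 3.

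The list of chaperonins and cofactors that fold tubulin had all 12 measured genes above the floor, with 10 of 12 lower in pool 1 than in pool 2 (median log2 difference -0.24), beside 3116 of all 6210 measured genes. Compared with pool 3, 8 of 12 were lower in pool 1 (median -0.10, beside 3114 of 6210) and 10 of 12 higher in pool 2 (median 0.16, beside 3156 of 6210). The chaperonin subunit Cct5 gave 2786.5, 3958.7 and 3791.2. Mean signals of the subunits Cct4, Cct3 and Cct7 were 2506 ± 331, 2382 ± 137 and 1919 ± 273 (SD, n = 3 pools). None of the 12 passed the test or 2-fold.

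In the list of tubulin modifying and severing enzymes, 3 of 4 genes were above the floor in every pool: the deacetylases Hdac6 (2319 ± 247) and Sirt2 (1510 ± 224) and the severing enzyme Spast (838 ± 62.1; SD, n = 3 pools). Among plus end and nucleation partners 6 of 8 were, with Ckap5, a microtubule polymerase, at 863 ± 170, Clip1, a tip protein, at 761 ± 70.7 and Pcm1, of centriolar satellites, at 560 ± 110. In the list of motor adaptors and regulators 9 of 12 were, with Kifap3, the kinesin-2 adaptor, at 1818 ± 310, the huntingtin partner Hap1 at 1682 ± 216, huntingtin (Htt) at 1662 ± 122 and the dynein regulator Ndel1 at 1645 ± 92.4. These lists hold no gene past the test.

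Kinases acting on microtubule proteins were above the floor in 6 of 7 cases. Gsk3a, which phosphorylates tau, gave 7947.4, 5597.7 and 5613.0, with pool 1 highest. Mark2 (2372 ± 325), Mark3 (1827 ± 328) and Cdk5 (1544 ± 113; SD, n = 3 pools) also act on such proteins. In the list, 5 of 6 measured genes were higher in pool 1 than in pool 2 (median log2 difference 0.44), beside 3093 of all 6210. Compared with pool 3, 4 of 6 were higher in pool 1 (median 0.29, beside 3096 of 6210) and 5 of 6 lower in pool 2 (median -0.15, beside 3054 of 6210). Linkers to actin and membranes had 2 of 4 genes above the floor in every pool, Macf1 at 4155 ± 778 and Arl3 at 1581 ± 261. All 6 intraflagellar transport genes with a probe set were above it. Ift88, without which outer segments do not form properly, gave 2844.9, 2037.3 and 3022.6. Ift81 had a mean signal of 1138 ± 166, Ift27 of 941 ± 212 and Ift172 of 664 ± 89.5 (SD, n = 3 pools).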

How the data were processed

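The deposited table gives 1 linear intensity per probe set and array, already scaled. Its software, version and background correction: not given in the sources used here. Of 12488 probe sets listed, 66 controls were set apart. The supplied platform annotation gave 10833 probe sets 1 gene symbol, and symbols were updated through a gene table of assembly GRCm38.p6, which renamed 0 of the 102 probe sets described here. No gene coordinates are in the table.

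Signals under the floor (90th percentile of 19 control probe sets) were raised to it, and log2 was taken of the deposited intensity values. Variability was tested with limma 3.58.1 (R 4.3.3), by an intercept-only fit over all 8327 measured probe sets, a robust F distribution with an intensity trend, the tail p of each variance and Benjamini-Hochberg adjustment at 0.05. The test was also run on simulated data, but that outcome is not given here. It therefore does not show how small a difference the test can detect. Probe sets that did not pass are not shown to be steady. It compares each probe set's spread with that of probe sets of similar signal, and with 3 arrays it measures only the spread between these RNA samples. Python 3.11.15, pandas 2.3.3, numpy 2.4.6, scipy 1.17.1 and matplotlib 3.10.9 did the rest. No 2 arrays held duplicate data: at most 9 signals were equal between arrays.

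The genes, classes, pathway lists and marker lists were chosen with earlier results of these data known. Per-pool values are given for the 12 genes with the largest and the 6 with the smallest SD, up to 4 of highest mean per class and genes whose probe sets disagreed on the highest pool. Dync1i1, Dync1i2 and some further probe sets are given by pool after their values were seen. The remaining genes above the floor have their mean and SD, and of pathway lists up to 4 genes of highest mean are named. Promoters came from RefSeq tables. The alternatives varied the floor, scaling, filter, variance fit, probe set choice, fold mark, log scale and arrays, 15 settings in all.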

Additional observations from a re-analysis of the deposited data

How the results depend on the processing

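Under every alternative run, the median SD and the median differences moved by less than the spread between pools and the number of genes above the floor by less than 1.5 times. The median for pool 1 minus pool 3 ranged from -0.07 to 0.01 and that for pool 2 minus pool 3 from -0.07 to 0.05, so their sign is not fixed. The count of probe sets past limma's adjusted p was 0 to 1 when 1 pool was left out, the 1 being Dynlrb1 without pool 1, and 3 without the filter on low signal: Dynlrb1 (0.039) and a pair of Mapt sets (0.044 and 0.019). Counts over the array in these settings are not given, and without the filter the adjusted p of other sets fell too. At 1.5-fold, 12, 8 and 12 genes were past the mark for pools 1 and 2, 1 and 3, and 2 and 3. With the floor at the median control the first of these pairs had 6 and pools 1 and 3 had 5, Dnah8, Kif11 and Kif23 entering both and Kifc2 the first. With a gene's probe sets averaged each pair had 1: Dync1h1 for pools 1 and 2 and Tubb4b for the others, while Mapt, Dynlrb1 and Dynll2 dropped out. For pools 1 and 3, 1 gene was past 2-fold with the floor at the highest control and with log2 of intensity plus 50 (Dynlrb1, Tubb4b dropping out). Without suffixed probe sets it was also 1 (Tubb4b), but Dynlrb1 has only suffixed sets and was left out there. Shares of all measured genes past the mark are not given for the alternatives, so these counts of genes are a description only. No paired analysis was possible because the arrays form 1 group. The number of arrays limits the precision, and values near the floor carry no order.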
